A study of Mus musculus with 27 samples.

Results

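The genes described here are 10 genes widely used as markers of astrocytes: Gfap, Slc1a2, Slc1a3, Aldh1l1, Aldoc, Agt, S100b, Sparcl1, Apoe and Aqp4. They were taken by symbol, matched through the Ensembl identifier to the GENCODE annotation, and were all found, as 10 of 37332 genes in the table of read counts and 10 of 53379 in the table of TPM, a level corrected for transcript length and library size. All 10 passed the filter on low counts, which left 18226 genes for testing. They were measured in polyadenylated RNA longer than 200 nt from the chromatin, the nucleoplasm and the cytoplasm of 3 mouse cell types. The first was the E14 embryonic stem cell line (mESC), grown on gelatin with LIF, the cytokine that keeps such cells undifferentiated. The second was a neural progenitor line (mNPC), grown in DMEM/F12 with B27 and with EGF and FGF added daily at 10 ng/ml. The third was primary cortical neurons (mCtx), kept on poly-L-lysine for 5 days. No group carried a genetic change or a drug according to the labels, and each line stands for 1 source of cells. Each of the 9 groups, a fraction of a cell type, has 3 biological replicates, so there were 27 libraries, which were stranded and read as pairs of 100 bp. Nothing in the labels says whether replicates came from separate cultures or animals, so the p-values measure the spread between these libraries.

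Astrocytes are the glia that clear transmitter from synapses, buffer ions and water, and supply neurons with metabolites and lipids. In the developing cortex they arise from radial glia after neurons have been made, under signals that act through Notch, STAT and NFI factors, and neural progenitor cells in culture share several of their transcripts. The members fall into groups by where their proteins go. Apoe, the main lipid carrier of the brain, Agt, the precursor of the angiotensin peptides, and Sparcl1, a matrix protein that promotes synapse formation, are secreted. Slc1a2 and Slc1a3 are the main glial glutamate transporters and Aqp4 is the water channel of astrocyte endfeet, and these are membrane proteins. Gfap, the intermediate filament of astrocytes, Aldh1l1, an enzyme of folate metabolism, Aldoc, the brain aldolase of glycolysis, and S100b, a calcium-binding protein, are cytosolic proteins.

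RefSeq promoter windows, 250 bases before to 50 after a gene's start in GRCm38.p6, were present for 8 members. That of Gfap is set at a RefSeq start that lies inside the span counted. Sparcl1 and Aqp4 had no entry. The windows of Gfap, Agt and S100b are shown because the levels of these 3 genes were the most alike among the members. Over the 9 group means of log2 CPM, which share libraries within a cell type, Pearson's r was 0.983 for Agt and S100b, 0.971 for Gfap and S100b and 0.96 for Gfap and Agt. Agt and S100b held 0 to 9 counts in each mESC and mCtx group, so r mainly sets mNPC against the other cell types. Within mNPC their log2 fold changes of nucleoplasm over cytoplasm had opposite signs, 1.97 for Agt and -1.03 for S100b. Capitals mark the matches, on either strand, to 4 short motifs chosen after the values were seen: TTCNNNGAA, the form bound by STAT factors, TTGGCA, an NFI motif, ACAAAG, a core of SOX and TCF motifs, and TATAAA, the TATA box. None of the 4 overlaps another in these windows.
Gfap (chr11:102897151-102897450, minus strand): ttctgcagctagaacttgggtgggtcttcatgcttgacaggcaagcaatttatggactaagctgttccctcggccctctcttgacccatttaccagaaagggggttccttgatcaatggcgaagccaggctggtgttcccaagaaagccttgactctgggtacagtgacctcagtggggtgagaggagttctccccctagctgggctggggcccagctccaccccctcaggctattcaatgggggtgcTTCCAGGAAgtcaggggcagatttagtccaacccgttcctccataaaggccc
Agt (chr8:124569657-124569956, minus strand): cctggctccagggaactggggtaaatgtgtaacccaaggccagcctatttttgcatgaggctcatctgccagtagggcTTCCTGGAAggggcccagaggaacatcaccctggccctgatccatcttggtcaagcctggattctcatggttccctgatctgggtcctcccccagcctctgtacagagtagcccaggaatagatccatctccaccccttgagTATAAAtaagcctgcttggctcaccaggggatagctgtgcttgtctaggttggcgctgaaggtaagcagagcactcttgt
S100b (chr10:76253586-76253885, plus strand): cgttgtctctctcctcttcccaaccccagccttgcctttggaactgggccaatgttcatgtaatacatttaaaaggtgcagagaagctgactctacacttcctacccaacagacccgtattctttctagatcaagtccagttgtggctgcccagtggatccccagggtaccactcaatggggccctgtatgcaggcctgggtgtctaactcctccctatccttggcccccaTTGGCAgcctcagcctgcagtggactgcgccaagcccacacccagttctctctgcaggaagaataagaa
Gfap and Agt each hold 1 match to TTCNNNGAA, which 8.3% of 32841 promoters of the same length hold. Agt also holds TATAAA, found in 13.6% of promoters, and S100b holds TTGGCA, found in 14.1%. ACAAAG, found in 18.7% of promoters, is in none of the 3. All 3 windows are poor in CpG: the observed over expected ratio is 0.129 in Gfap, 0.0450 in Agt and 0.145 in S100b, and 17.8%, 5.6% and 20.2% of promoters lie lower. A match describes the letters of the window and shows no binding.

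The depth of a library lay between 13496984 and 20808290 counts for the stem cells, between 10622897 and 23608781 for the progenitors, and between 15607890 and 24537526 for the neurons. Levels are given in CPM, the count scaled to the TMM-adjusted size of its library, as mean ± SD of 3 libraries, and 3 counts in a library correspond to 0.122 to 0.328 CPM. The cell types carried the markers of their labels: the 8 pluripotency markers summed to 5036 to 5576 CPM in mESC cytoplasm against at most 16.2 CPM in any library of mNPC and 5.23 CPM in any of mCtx, the 10 progenitor markers to 6309 to 6519 CPM in mNPC cytoplasm, and the 15 neuron markers to 11623 to 12670.4 CPM in mCtx cytoplasm. The mESC libraries numbered 1 were the least like the rest of their group in every fraction. Their mean correlation with the other libraries of their group was 0.9754 to 0.9805, the lowest of each mESC fraction. Those numbered 3 followed at 0.9795 to 0.9841 and those numbered 2 at 0.9845 to 0.9869. The libraries numbered 1 held more Apoe and Aldh1l1 than the other mESC libraries. They were also the highest of the mESC libraries for the 9 endothelium markers, at 571.7, 356 and 247 CPM in the nucleoplasm libraries 1, 2 and 3, and for the 9 fibroblast and mural markers, at 96.1, 50.1 and 25.1 CPM. Results that rest on mESC are given with and without them where this changes a call. Counts from mitochondrially encoded genes made up 8.81% to 11.7% of the mNPC nucleoplasm, 6.41% to 6.70% of the mCtx nucleoplasm and 3.84% to 4.43% of the mESC nucleoplasm, against 0.317% to 0.504%, 2.44% to 2.64% and 0.0321% to 0.0435% of the cytoplasm. A gene was called where edgeR's quasi-likelihood test gave an adjusted p under 0.05 together with a log2 fold change of 1 or more in either direction. All log2 fold changes come from 1 fit of the 27 libraries.

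All 10 are protein-coding genes and are given here where the count table places them in mm10. Among the secreted members, Apoe (ENSMUSG00000002985) lies at chr7:19696109-19699166 (minus strand), Agt (ENSMUSG00000031980) at chr8:124556534-124569706 (minus strand) and Sparcl1 (ENSMUSG00000029309) at chr5:104079111-104114088 (minus strand). Among the membrane proteins, Slc1a2 (ENSMUSG00000005089) lies at chr2:102658659-102790784 (plus strand), Slc1a3 (ENSMUSG00000005360) at chr15:8634124-8710764 (minus strand) and Aqp4 (ENSMUSG00000024411) at chr18:15389394-15403684 (minus strand). Among the cytosolic members, Gfap (ENSMUSG00000020932) lies at chr11:102887336-102900912 (minus strand), Aldh1l1 (ENSMUSG00000030088) at chr6:90486427-90600203 (plus strand), Aldoc (ENSMUSG00000017390) at chr11:78322968-78327781 (plus strand) and S100b (ENSMUSG00000033208) at chr10:76253853-76261159 (plus strand). The deposited length of each gene is its whole span, so introns lie inside the counted region. Exons of GENCODE M21 fill 69.9% of the span of Apoe and 67.8% of that of Aldoc, and at the other end 8.40% of that of Sparcl1 and 3.97% of that of Aldh1l1. S100b overlaps Dip2a on the opposite strand over 1731 bp, and since the strand setting of the counting is not given in the sources used here, reads of this stretch could belong to either gene. Dip2a had 34124 counts over the 27 libraries against 4437 for S100b. The antisense genes Gm13872 within Slc1a2 and Gm15756 within Aldh1l1 had 2 and 4 counts in all.

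In every fraction the 10 genes together were most abundant in mNPC. Their summed level was 9863 to 15367 CPM in the nucleoplasm of mNPC, 2697 to 3739.8 CPM in the cytoplasm and 1828 to 2619 CPM in the chromatin. In mCtx the same sums were 1129 to 1250.2 CPM, 808 to 832 CPM and 487 to 505 CPM. In mESC they were 739.6 to 2136 CPM, 160.1 to 264 CPM and 204 to 306 CPM, and in the mESC nucleoplasm the 3 secreted members made up 658 to 2067 CPM of it, nearly all Apoe. Within mNPC the library numbered 1 was the highest of its group in 28 of the 30 pairs of a gene and a fraction, against 15 of 30 in mCtx and 13 of 30 in mESC. In such bulk samples fewer cells of a type and less RNA per cell cannot be told apart.

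**Figure D1:**
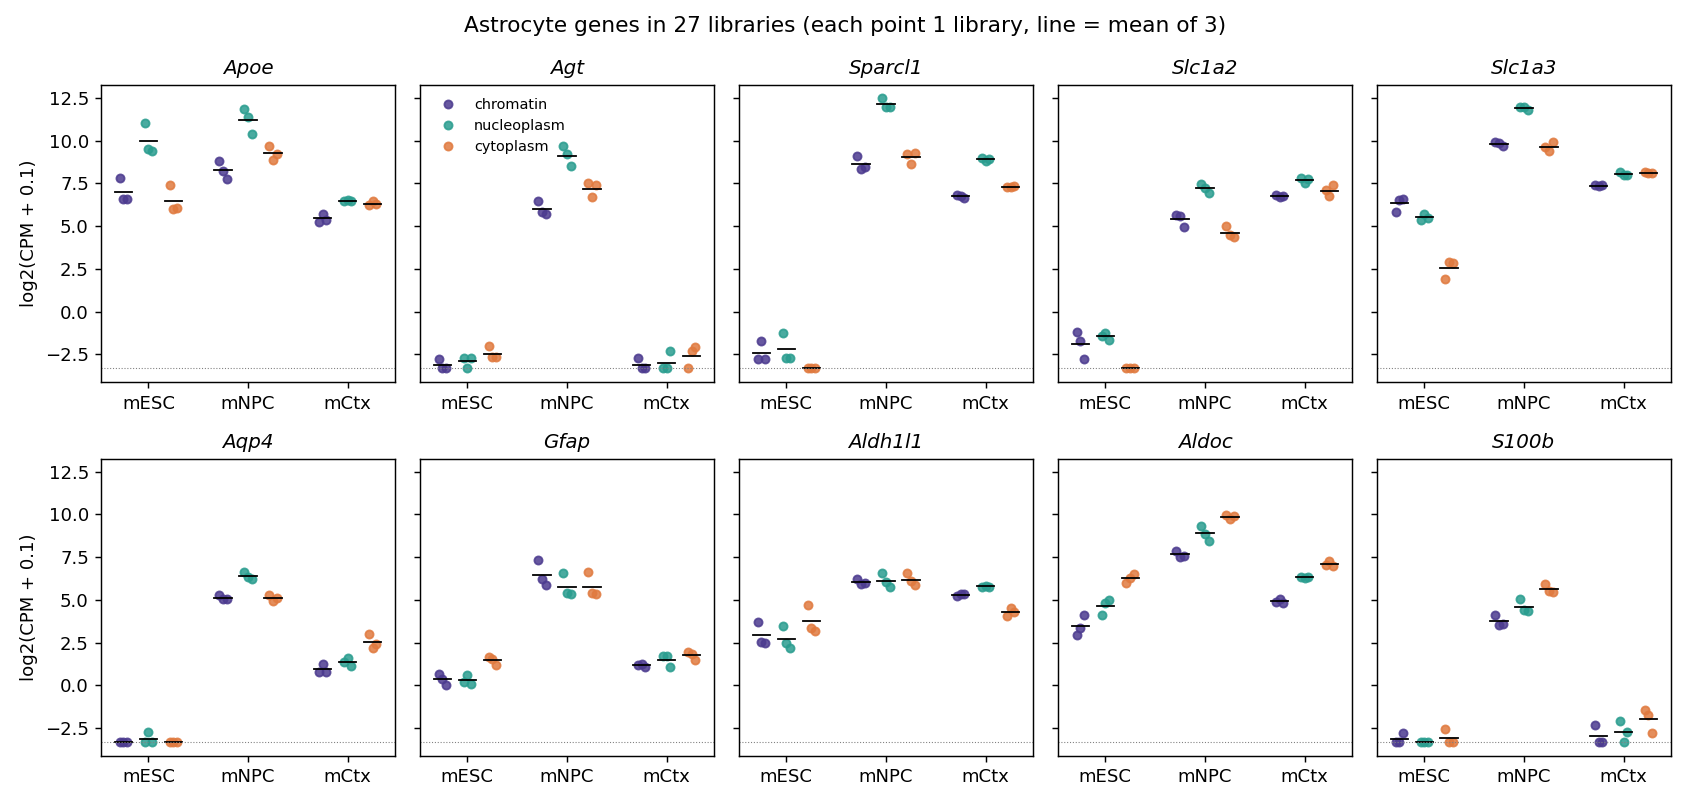
Level of each astrocyte gene in each of the 27 libraries, as log2(CPM + 0.1), by cell type on the horizontal axis and by fraction in colour, with the mean of 3 libraries as a line and a dotted line at 0 counts. All 10 genes reach their highest mean level in mNPC except Slc1a2, whose highest is the mCtx nucleoplasm, and Agt and S100b lie near the dotted line in mESC and mCtx.

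Ordered by TPM, which accounts for transcript length, Apoe led in 8 of the 9 groups and Sparcl1 led in the nucleoplasm of mCtx. By CPM, which does not account for length, Apoe led in the 3 mESC groups alone, ranked 3 in each mNPC fraction and 4 or 5 in mCtx, and the lead went to Aldoc in mNPC cytoplasm, to Sparcl1 in the nucleoplasm of mNPC and mCtx, and to Slc1a3 in the other groups. In mNPC cytoplasm Apoe stood at 1041 ± 351 TPM, Aldoc at 657 ± 71.7, Slc1a3 at 258 ± 36.1, Sparcl1 at 256 ± 57.5 and Agt at 107 ± 30.9 TPM. The lower 5 there were S100b at 46.6 ± 10.8, Aldh1l1 at 34.5 ± 9.10, Gfap at 31.6 ± 19, Aqp4 at 8.51 ± 1.18 and Slc1a2 at 3.21 ± 0.756 TPM. The ranges of Slc1a3 and Sparcl1 overlapped, and so did those of S100b with Aldh1l1 and of Aldh1l1 with Gfap, while the other neighbours in this order did not. The order changed with the fraction: Sparcl1 ranked 2 in mNPC nucleoplasm at 1714 ± 246 TPM, its range overlapping that of Apoe at 3328 ± 1399 TPM, and Aldoc ranked 5 at 283 ± 71.5 TPM. In mCtx cytoplasm Apoe stood at 121 ± 2.72 TPM, Aldoc at 97.3 ± 6.49, Slc1a3 at 87.5 ± 5.02, Sparcl1 at 72.7 ± 4.48, Slc1a2 at 15.3 ± 4.03 and Aldh1l1 at 7.76 ± 0.588 TPM. Gfap, the classical astrocyte filament, was at 1.69 ± 0.360 TPM in these neurons, with Aqp4 at 1.40 ± 0.447, S100b at 0.170 ± 0.0557 and Agt at 0.0833 ± 0.0404 TPM. In mESC cytoplasm only Apoe at 163 ± 107 and Aldoc at 51.9 ± 5.20 TPM exceeded 10 TPM.

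The first comparison asks how these genes differ between progenitors and stem cells. All 10 were higher in mNPC than in mESC, in the cytoplasm, the nucleoplasm and the chromatin alike. The share of all tested genes called in either direction was 59.4% in the cytoplasm, 57.4% in the nucleoplasm and 57.2% in the chromatin, with 29.8%, 24.5% and 25.3% higher and 29.6%, 32.8% and 31.9% lower. The median log2 fold change of the 10 was 8.89, 7.74 and 7.04, against -0.01, -0.25 and -0.14 over all tested genes. With genes of 0 to 3 counts in mESC set at their bound or counting ratio, the medians of the 10 were 7.90, 7.64 and 7.04.

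Of the secreted members, Sparcl1 was not detected in the cytoplasm of stem cells and was among the most abundant of the 10 in progenitors. Its libraries held 0, 0 and 0 counts in mESC cytoplasm and 13736, 7253 and 8297 in mNPC cytoplasm, which is at least 8631-fold higher against a floor of 3 counts over the mESC group. Agt held 2, 1 and 1 counts in mESC cytoplasm and 4237, 1857 and 2231 in mNPC, a log2 fold change of 10.71 ± 0.48 (SE; adjusted p = 7.1e-17), and in the nucleoplasm 2 counts in all against 20260, a ratio of 17046 (95% counting interval 4718 to 140761). Both genes were near absent from the stem cells. Apoe, in contrast, was present in both cell types. In the cytoplasm its level was 166, 62.9 and 65.9 CPM in the 3 mESC libraries and 836, 467 and 589 CPM in the 3 of mNPC, so the groups did not overlap, and it was higher in mNPC by 2.68 ± 0.44 (SE; adjusted p = 5e-06) on the log2 scale. In the nucleoplasm its level was 2066, 723 and 658 CPM in mESC and 3719.7, 2700.1 and 1313 CPM in mNPC, and in the chromatin 226, 95.3 and 97.5 against 451, 301 and 218 CPM. There the first mESC library lay within the mNPC range, and the differences were 1.17 ± 0.42 (SE; adjusted p = 0.014) and 1.21 ± 0.42 (SE; adjusted p = 0.011). Without the mESC libraries numbered 1 they were 2.09 and 1.59. Scaled by library totals alone the nucleoplasm value was 0.74 (adjusted p = 0.14), in log2(TPM + 1) it was 0.89, and it was also under the minimum of 1 without the mESC nucleoplasm library 2 (0.92) or 3 (0.89) or the mNPC nucleoplasm library 1 (0.96). The chromatin call was lost without the same 3 libraries of that fraction, at 1.00, 1.02 and 0.90 (adjusted p = 0.062, 0.055 and 0.075), and with DESeq2 (1.03, adjusted p = 0.058).

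Of the membrane members, Slc1a3, the glutamate transporter of radial glia and astrocytes, was already detected in stem cells. Its cytoplasm level was 3.61, 7.40 and 6.93 CPM in mESC and 797, 675 and 964 CPM in mNPC, a log2 fold change of 7.07 ± 0.25 (SE; adjusted p = 5e-19). Its chromatin level was 57.5, 90.8 and 97.6 CPM in mESC and 971, 942 and 818 CPM in mNPC, a log2 fold change of 3.47 ± 0.20 (SE; adjusted p = 2.3e-14). No mNPC library overlapped the mESC range in any fraction. Slc1a2, the other glutamate transporter, had 0, 0 and 0 counts in mESC cytoplasm and 751, 409 and 271 in mNPC, at least 422-fold higher. Aqp4 had 0, 0 and 0 and 904, 563 and 466 counts, at least 569.7-fold higher, and in the chromatin it was at least 780.1-fold higher. The water channel and Slc1a2 were the least abundant of the 10 in mNPC cytoplasm by TPM.

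Of the cytosolic members, Aldoc had the highest level in mNPC. Its cytoplasm level was 64.4, 76.8 and 91 CPM in mESC and 1009, 843 and 944 CPM in mNPC, a log2 fold change of 3.59 ± 0.25 (SE; adjusted p = 9.4e-13). Gfap was at 3.09, 2.77 and 2.21 CPM in mESC and 97.6, 41.5 and 39.8 CPM in mNPC, a log2 fold change of 4.48 ± 0.41 (SE; adjusted p = 1.7e-10). The mNPC library numbered 1 held the most Gfap in each fraction, with 95.9, 42.1 and 40.0 CPM in the nucleoplasm and 158, 74.6 and 58.4 CPM in the chromatin. Aldh1l1 was at 25.8, 10.1 and 9.03 CPM in mESC, where the first library was again the highest, and 95.4, 68.4 and 59 CPM in mNPC, a log2 fold change of 2.33 ± 0.34 (SE; adjusted p = 8.8e-07). S100b was at 1, 0 and 0 counts in mESC cytoplasm and 1394, 831 and 598 in mNPC, a ratio of 2496 (95% counting interval 448 to 98623). None of these 4 genes had an mNPC library within the mESC range in any fraction.

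The second comparison asks how the genes differ between cortical neurons and progenitors. It shares the mNPC libraries with the first. In the cytoplasm 9 of the 10 were lower in mCtx and Slc1a2 was higher, where 44.4% of all tested genes were called, 24.4% higher and 20.0% lower. In the nucleoplasm 8 were lower and 2 were not called (46.7% of all tested genes called, 24.6% higher and 22.1% lower), and in the chromatin 8 were lower, Slc1a2 was higher and Aldh1l1 was not called (44.8% of all tested genes called, 23.5% higher and 21.4% lower). The median log2 fold change of the 10 was -2.68 in the cytoplasm, -4.14 in the nucleoplasm and -2.82 in the chromatin, against 0, 0.08 and 0 over all tested genes. With Agt and S100b at their counting ratios in the nuclear fractions, the medians there were -4.13 and -2.81.

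Slc1a2 was the 1 member more abundant in neurons. Its level was 32.3, 22.5 and 20.2 CPM in mNPC cytoplasm and 136, 107 and 167 CPM in mCtx cytoplasm, a log2 fold change of 2.44 ± 0.21 (SE; adjusted p = 2.5e-10). In the chromatin it was 49.5, 48.2 and 30.9 CPM in mNPC and 111, 102 and 109 CPM in mCtx, 1.32 ± 0.20 (SE; adjusted p = 3.7e-06). In the nucleoplasm the levels of 177, 149.8 and 122 CPM in mNPC and of 225, 186 and 213 CPM in mCtx also did not overlap, but the difference of 0.47 ± 0.20 (SE; adjusted p = 0.04) was under the minimum of 1. Its partner Slc1a3 went the other way, from 797, 675 and 964 CPM in mNPC cytoplasm to 284, 276 and 273 CPM in mCtx, -1.55 ± 0.19 (SE; adjusted p = 5.2e-08). The log2 fold change of Slc1a3 was -3.85 ± 0.21 (SE; adjusted p = 4.2e-15) in the nucleoplasm, where mNPC held 3852 ± 272 CPM and mCtx 267 ± 19.9 CPM. Aqp4 fell from 38.9, 31 and 34.7 to 7.78, 4.53 and 5.15 CPM in the cytoplasm, -2.60 ± 0.20 (SE; adjusted p = 9.2e-11), and from 84.2 ± 11.6 CPM to 2.48 ± 0.414 CPM in the nucleoplasm, -5.09 ± 0.23 (SE; adjusted p = 4.6e-15).

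**Figure D2:**
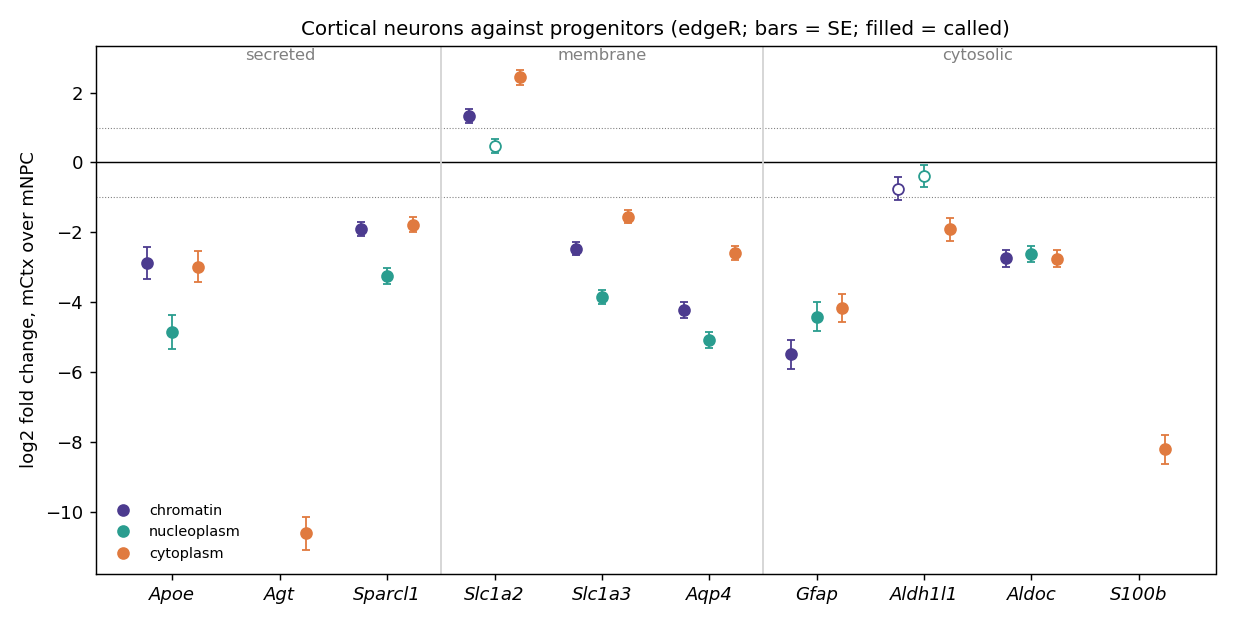
Log2 fold change of each gene in mCtx over mNPC in each fraction (vertical axis), with its SE as bars, filled points for called differences and dotted lines at the minimum of 1. Points that rest on 3 or fewer counts in a group (Agt and S100b in the nucleoplasm and chromatin) are left out, and Slc1a2 is the one gene above 0.

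The secreted members were lower in neurons to very different extents. Sparcl1 kept a level of 155, 153 and 160.2 CPM in mCtx cytoplasm, below the 591, 399 and 618 CPM of mNPC, a log2 fold change of -1.78 ± 0.21 (SE; adjusted p = 6.8e-08). Apoe was at 74.1, 86.7 and 78.5 CPM in mCtx cytoplasm, -2.98 ± 0.45 (SE; adjusted p = 1.7e-06), and at 88.8, 90.9 and 87.2 CPM in the nucleoplasm, -4.86 ± 0.49 (SE; adjusted p = 1.4e-09). Agt was barely detected: its libraries held 0, 2 and 3 counts in mCtx cytoplasm against 4237, 1857 and 2231 in mNPC, a fitted log2 fold change of -10.62 ± 0.47 (SE; adjusted p = 8.3e-17). In the nucleoplasm it held 2 counts in mCtx and 20260 in mNPC, so it was lower by a ratio of 15118 (95% counting interval 4185 to 124847).

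Of the cytosolic members, S100b and Gfap were low in neurons. S100b held 4, 4 and 1 counts in mCtx cytoplasm against 1394, 831 and 598 in mNPC, a fitted log2 fold change of -8.22 ± 0.42 (SE; adjusted p = 8.7e-15), and in the nucleoplasm the ratio of mNPC to mCtx was 414 (95% counting interval 141 to 2011). Gfap was at 3.82, 3.52 and 2.74 CPM in mCtx cytoplasm, -4.16 ± 0.40 (SE; adjusted p = 5.4e-10). Aldoc was lower in each fraction, with log2 fold changes of -2.76 ± 0.24 in the cytoplasm, -2.62 ± 0.24 in the nucleoplasm and -2.75 ± 0.25 in the chromatin (SE). Aldh1l1 fell in the cytoplasm, from 95.4, 68.4 and 59 to 16.4, 23.2 and 19.4 CPM, -1.92 ± 0.33 (SE; adjusted p = 1.5e-05). Its nucleoplasm levels of 94.3, 65.8 and 54.7 CPM in mNPC and 54.4, 56.1 and 54 CPM in mCtx overlapped, -0.39 ± 0.32 (SE; adjusted p = 0.3), and its chromatin difference was -0.75 ± 0.32 (SE; adjusted p = 0.044). By fitted value the folate enzyme was the member nearest to equal between the cell types in the nuclear fractions. In the nucleoplasm Slc1a2, at 0.47 ± 0.20 (SE), was as near within the error.

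Cortical neurons against stem cells is the third pairing and shares libraries with both others. In the cytoplasm 5 members were higher in mCtx and none lower (67.9% of all tested genes called, 35.7% higher and 32.2% lower). In the nucleoplasm 7 were higher and 1 lower (63.0% of all tested genes called, 28.9% higher and 34.1% lower), and in the chromatin 6 were higher and 1 lower (61.5% of all tested genes called, 29.3% higher and 32.3% lower). Slc1a2, Slc1a3, Sparcl1 and Aqp4 were higher in every fraction. For Aqp4 this rests on 119 counts in mCtx against 1 in mESC in the nucleoplasm and on 110 against 0 in the chromatin. In log2(TPM + 1) its values there were 0.65 and 0.85, under the minimum. Sparcl1 held 2270, 3044 and 3513 counts in mCtx cytoplasm against none in mESC, at least 2526-fold higher, and Slc1a2 was at least 2226-fold and Aqp4 at least 90.7-fold higher. Slc1a3 was higher by 5.52 ± 0.23 (SE; adjusted p = 1.1e-17) in the cytoplasm and by 2.55 ± 0.20 (SE; adjusted p = 4.5e-12) in the nucleoplasm. In the chromatin its 1.01 ± 0.19 (SE; adjusted p = 2.4e-05) sat at the minimum, and it was 0.78 with library totals and 0.74 without the mESC libraries numbered 1, and 0.80 without the mESC chromatin library 1 alone, and from 0.91 to 0.95 with RLE size factors, DESeq2, the other filters or only the libraries compared. The call of S100b in the cytoplasm rests on 9 counts against 1 and its ratio of 7.73 (95% counting interval 1.07 to 339) has a wide interval, and the call was lost with RLE size factors, in log2(TPM + 1) and without the mESC cytoplasm library 2 or 3 or the mCtx cytoplasm library 1 or 2 (adjusted p from 0.052 to 0.3).

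Apoe was the member with more transcript in stem cells than in neurons. Its nucleoplasm level was 2066, 723 and 658 CPM in mESC and 88.8, 90.9 and 87.2 CPM in mCtx, a log2 fold change of -3.69 ± 0.46 (SE; adjusted p = 5.3e-08). In the chromatin the levels were 226, 95.3 and 97.5 and 38.2, 52.3 and 41.6 CPM, -1.67 ± 0.43 (SE; adjusted p = 0.001). Neither pair of groups overlapped, and without the mESC libraries numbered 1 the values were -2.95 and -1.20. In the cytoplasm the groups overlapped, and the difference was -0.30 ± 0.42 (SE; adjusted p = 0.51). Gfap levels of these cell types were 2.69 ± 0.445 CPM and 3.36 ± 0.561 CPM in the cytoplasm, 0.32 ± 0.43 (SE; adjusted p = 0.5), and in the nucleoplasm 1.27 ± 0.50 (SE; adjusted p = 0.021), a call that was lost without the mCtx nucleoplasm library 1 (1.14, adjusted p = 0.067) and likewise without the mCtx nucleoplasm library 2 (1.18) and the mESC nucleoplasm libraries 1 (1.21) and 3 (1.16). It was also lost without all mESC libraries numbered 1 (1.20), with library totals (0.99) and in log2(TPM + 1), where the value was 0.24. Aldh1l1 was higher in mCtx nucleoplasm, 2.96 ± 0.36 (SE; adjusted p = 2.9e-08), and chromatin, 2.28 ± 0.35 (SE; adjusted p = 1.4e-06), and in the cytoplasm its difference was 0.41 ± 0.34 (SE; adjusted p = 0.26), which became 1.04 without the mESC cytoplasm library 1. Aldoc was higher by 1.64 ± 0.24 (SE; adjusted p = 7e-07) in the nucleoplasm and by 1.35 ± 0.24 (SE; adjusted p = 1.7e-05) in the chromatin, and by 0.83 ± 0.23 (SE; adjusted p = 0.002) in the cytoplasm, under the minimum.

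The fractions ask where in the cell the transcripts were found. In mNPC all 6 transcripts for secreted and membrane proteins were higher in the nucleoplasm than in the cytoplasm, and none of the 4 for cytosolic proteins was. The difference between these groups of genes was not tested. Of all tested genes 25.0% were called, 16.4% higher in the nucleoplasm and 8.56% lower. That split moves with the scaling: 2992 higher and 1561 lower with TMM became 2372 and 3248 with library totals and 3297 and 997 with RLE size factors. The median log2 fold change was 2.03 for the secreted, 2.25 for the membrane and -0.49 for the cytosolic members, against -0.04 over all tested genes. The levels are shares of each fraction's RNA, so they give no amount per cell.

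Sparcl1 had the largest difference of the 10, with 5645, 4021 and 3987 CPM in the nucleoplasm and 591, 399 and 618 CPM in the cytoplasm of mNPC, 3.09 ± 0.22 (SE; adjusted p = 2.6e-11). Agt was at 817, 591 and 359.9 CPM in the nucleoplasm and 182, 102 and 166 CPM in the cytoplasm, 1.97 ± 0.25 (SE; adjusted p = 2.3e-07). Apoe was at 3719.7, 2700.1 and 1313 CPM in the nucleoplasm and 836, 467 and 589 CPM in the cytoplasm, 2.03 ± 0.43 (SE; adjusted p = 2.7e-04). For these 3 secreted proteins no library of one fraction reached the range of the other. Slc1a2 was at 177, 149.8 and 122 CPM in the nucleoplasm and 32.3, 22.5 and 20.2 CPM in the cytoplasm, 2.58 ± 0.21 (SE; adjusted p = 3.2e-10). Slc1a3 was at 4040.0, 3976 and 3541 CPM in the nucleoplasm and 797, 675 and 964 CPM in the cytoplasm, 2.25 ± 0.19 (SE; adjusted p = 2.2e-10). Both glutamate transporters were separated by fraction in all 3 libraries. Aqp4 was at 97.1, 80.8 and 74.7 CPM in the nucleoplasm and 38.9, 31 and 34.7 CPM in the cytoplasm, 1.27 ± 0.18 (SE; adjusted p = 4.3e-06), and with library totals its difference was 0.99, just under the minimum.

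None of the cytosolic members was higher in the nucleoplasm. Gfap was at 95.9, 42.1 and 40.0 CPM in the nucleoplasm and 97.6, 41.5 and 39.8 CPM in the cytoplasm, -0.01 ± 0.33 (SE; adjusted p = 1), and Aldh1l1 at 94.3, 65.8 and 54.7 CPM in the nucleoplasm and 95.4, 68.4 and 59 CPM in the cytoplasm, -0.05 ± 0.32 (SE; adjusted p = 0.96). Both overlapped between the fractions. Aldoc was at 649, 466 and 351 CPM in the nucleoplasm and 1009, 843 and 944 CPM in the cytoplasm, -0.93 ± 0.23 (SE; adjusted p = 0.0013), and S100b at 32.3, 20.8 and 20.5 CPM in the nucleoplasm and 60.0, 45.8 and 44.6 CPM in the cytoplasm, -1.03 ± 0.26 (SE; adjusted p = 0.0017). These 2 were lower in the nucleoplasm in every library, but both lay close to the minimum: with library totals Aldoc was -1.22, and S100b was from -0.98 to -0.87 with RLE size factors, DESeq2, the other filters or only the libraries compared. The call of S100b was also lost without the mNPC cytoplasm library 1 (-0.88) or the nucleoplasm library 2 (-0.78) or 3 (-0.75).

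The mitochondrial share given above moved with this comparison, and leaving out the mitochondrially encoded genes gave 3.10 for Sparcl1, 2.05 for Apoe and 1.29 for Aqp4, with the same 6 genes called higher. What this share says of the fractions' purity was not tested. In log2(TPM + 1) the differences were 2.75 for Sparcl1, 1.85 for Slc1a2, 1.94 for Slc1a3, 1.62 for Apoe, 1.61 for Agt and 0.88 for Aqp4, the last under the minimum. Over the 15 alternatives on counts, single libraries left out included, Sparcl1 ran from 2.80 to 3.33, Slc1a2 from 2.29 to 2.87, Slc1a3 from 1.97 to 2.46, Apoe from 1.73 to 2.52 and Agt from 1.68 to 2.39, and all 5 were called in each.

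**Figure D3:**
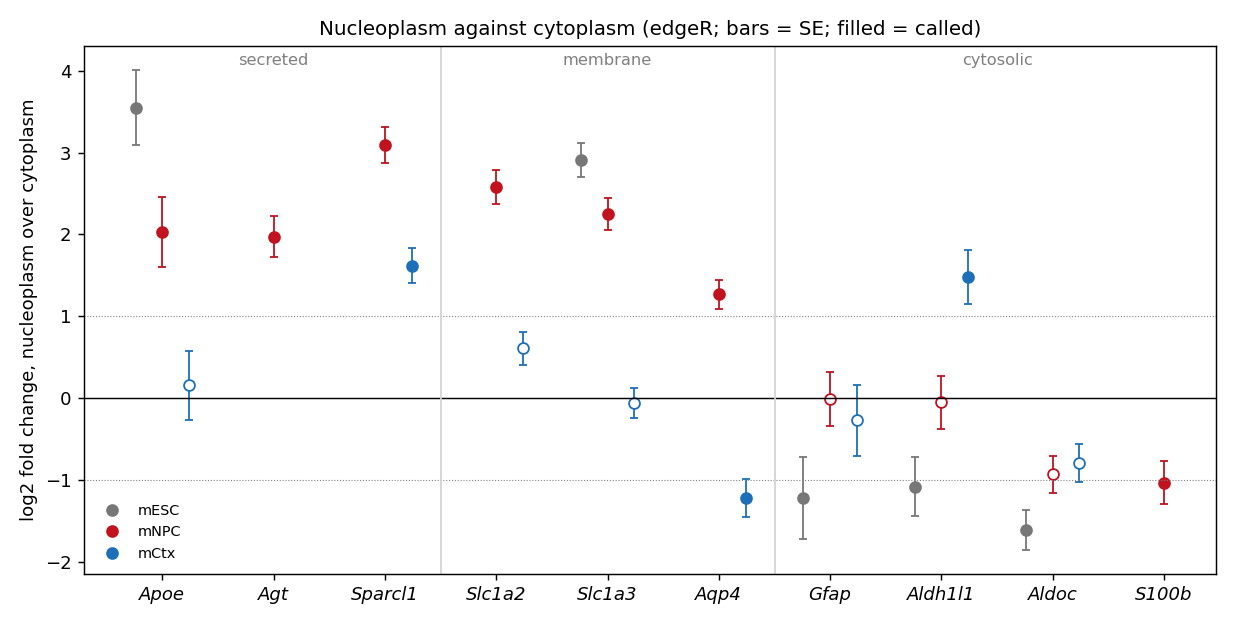
Log2 fold change of nucleoplasm over cytoplasm (vertical axis) for each gene in the 3 cell types, with its SE as bars, filled points for called differences and dotted lines at the minimum of 1. The 6 secreted and membrane members lie above 1 in mNPC, from 1.27 to 3.09, while the 4 cytosolic members lie between -1.03 and -0.01, and points resting on 3 or fewer counts in a group are left out.

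In mCtx fewer members differed between these fractions. Of the 10 members Sparcl1 and Aldh1l1 were higher in the nucleoplasm, Aqp4 was lower and 7 were not called, with 21.3% of all tested genes called, 11.7% higher and 9.57% lower. Sparcl1 was at 505, 456 and 478 CPM in the nucleoplasm and 155, 153 and 160.2 CPM in the cytoplasm, 1.62 ± 0.21 (SE; adjusted p = 9.8e-07). Aldh1l1, which did not pass the test in mNPC, was at 54.4, 56.1 and 54 CPM in the nucleoplasm and 16.4, 23.2 and 19.4 CPM in the cytoplasm, 1.48 ± 0.33 (SE; adjusted p = 6.2e-04). Aqp4 was at 2.45, 2.91 and 2.08 CPM in the nucleoplasm and 7.78, 4.53 and 5.15 CPM in the cytoplasm, -1.22 ± 0.23 (SE; adjusted p = 1.1e-04), and -0.98 without the mCtx cytoplasm library 1 and -0.56 in log2(TPM + 1). Slc1a3 was at 289, 256 and 254 CPM in the nucleoplasm and 284, 276 and 273 CPM in the cytoplasm, -0.06 ± 0.18 (SE; adjusted p = 0.84), Apoe differed by 0.16 ± 0.42 (SE; adjusted p = 0.81) and Slc1a2 by 0.61 ± 0.20 (SE; adjusted p = 0.015). Aldoc differed by -0.79 ± 0.23 (SE; adjusted p = 0.0062) and Gfap by -0.27 ± 0.43 (SE; adjusted p = 0.66). Agt held 2 counts in the nucleoplasm and 5 in the cytoplasm and S100b held 3 and 9, so the ratios of cytoplasm to nucleoplasm were 2.16 (95% counting interval 0.354 to 22.7) and 2.60 (95% counting interval 0.648 to 14.9).

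The difference between the cell types was tested directly as the change of the nucleoplasm-to-cytoplasm log2 fold change from mNPC to mCtx. Slc1a3 changed by -2.31 ± 0.26 (SE; adjusted p = 1.7e-07), Aqp4 by -2.50 ± 0.29 (SE; adjusted p = 6.6e-07), Slc1a2 by -1.97 ± 0.29 (SE; adjusted p = 8.3e-06), Apoe by -1.87 ± 0.59 (SE; adjusted p = 0.017) and Sparcl1 by -1.47 ± 0.29 (SE; adjusted p = 3.7e-04), all toward the cytoplasm in mCtx. Aldh1l1 changed by 1.53 ± 0.46 (SE; adjusted p = 0.012) toward the nucleoplasm. So 5 members were lower and 1 higher, with 19.6% of all tested genes called, 13.3% lower and 6.31% higher. Over all genes 1150 were higher and 2421 lower, and 1875 and 2018 with library totals. All 5 that were lower are secreted or membrane proteins. The call of Apoe was lost without the mNPC nucleoplasm library 1 (-1.70, adjusted p = 0.051) and the mNPC cytoplasm library 2 (-1.70, adjusted p = 0.05), and on the TPM scale (-1.41). That of Aldh1l1 was lost without the mNPC nucleoplasm library 2 or 3 or any 1 of the 3 mCtx nucleoplasm libraries, with values from 1.17 to 1.36.

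In mESC 4 members were higher in the nucleoplasm than in the cytoplasm and 3 were lower, with 36.5% of all tested genes called, 27.5% higher and 8.95% lower. Apoe was at 2066, 723 and 658 CPM in the nucleoplasm and 166, 62.9 and 65.9 CPM in the cytoplasm, 3.55 ± 0.46 (SE; adjusted p = 2.6e-07), and Slc1a3 at 40.2, 51.3 and 44.8 CPM in the nucleoplasm and 3.61, 7.40 and 6.93 CPM in the cytoplasm, 2.91 ± 0.21 (SE; adjusted p = 5.4e-12). Both were higher in the nucleoplasm in every library. Aldoc was lower there, at 16.9, 27.9 and 31.4 CPM in the nucleoplasm and 64.4, 76.8 and 91 CPM in the cytoplasm, -1.61 ± 0.24 (SE; adjusted p = 2.3e-06). Gfap differed by -1.22 ± 0.50 (SE; adjusted p = 0.035) and Aldh1l1 by -1.08 ± 0.36 (SE; adjusted p = 0.01), both calls lost with library totals, where their adjusted p was 0.089 and 0.057. The call of Gfap also ended without the mESC nucleoplasm library 1 (-1.24) or 3 (-1.11) or the cytoplasm library 1 (-1.15) or 2 (-1.29). That of Aldh1l1 ended without the cytoplasm library 1 (-0.47), which was its highest, or the nucleoplasm library 2 (-0.94) or 3 (-0.84). Without all mESC libraries numbered 1 the values were -1.10 for Gfap and -0.98 for Aldh1l1. The calls of Slc1a2 and Sparcl1 rest on 15 and 8 counts in the nucleoplasm against 0 in the cytoplasm, at least 4.40-fold and 2.35-fold higher. In log2(TPM + 1) their differences were 0.07 and 0.08. The call of Sparcl1 ended without all mESC libraries numbered 1 (adjusted p = 0.29), without the nucleoplasm library 1 (adjusted p = 0.18) and without the cytoplasm library 2 or 3 (adjusted p = 0.06 and 0.062). In log2(TPM + 1) Gfap was -0.43 and Aldh1l1 -0.57, neither called. The change of this log2 fold change from mESC to mNPC was not called for any member by edgeR (14.2% of all tested genes called, 3.51% higher and 10.7% lower), and 3 members had an unadjusted p under 0.05. Apoe changed by -1.52 ± 0.59 (SE; adjusted p = 0.064) and Slc1a3 by -0.66 ± 0.27 (SE; adjusted p = 0.082). Without the mESC libraries numbered 1 Apoe (-1.19, adjusted p = 0.026) and Aldh1l1 (1.08, adjusted p = 0.0067) were called. In mESC, libraries of different fractions with the same number deviated together, and with this number as a block Apoe (-1.55, adjusted p = 1.3e-06) and Gfap (1.23, adjusted p = 5.8e-05) were called.

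The chromatin was compared with the same cytoplasm libraries as the nucleoplasm. Aldoc was the member lower in chromatin in all 3 cell types, with log2 fold changes of -2.71 ± 0.25 (SE; adjusted p = 3.1e-10) in mESC, -2.20 ± 0.24 (SE; adjusted p = 5.8e-09) in mNPC and -2.20 ± 0.24 (SE; adjusted p = 8e-09) in mCtx. Its levels in mNPC were 235, 182 and 190.1 CPM in chromatin and 1009, 843 and 944 CPM in cytoplasm, and the groups did not overlap in any cell type. In mNPC 3 members were lower in chromatin and none higher (48.9% of all tested genes called, 27.5% higher and 21.3% lower): Aldoc, S100b with -1.88 ± 0.26 (SE; adjusted p = 7.2e-07) and Agt with -1.19 ± 0.25 (SE; adjusted p = 1.1e-04). Apoe in mNPC, at -0.96 ± 0.42 (SE; adjusted p = 0.045), lay just under the minimum and was 0.08 on the TPM scale. In mCtx 2 were lower (50.6% of all tested genes called, 26.2% higher and 24.4% lower), Aldoc and Aqp4, the latter with -1.64 ± 0.23 (SE; adjusted p = 1e-06). Aldh1l1 in mCtx leaned to the chromatin by 0.99 ± 0.33 (SE; adjusted p = 0.0093), just under the minimum, with no overlap. It was from 1.38 to 1.48 on the TPM scale and stayed uncalled in 8 of 18 alternatives. In mESC 3 were higher and 2 lower (56.0% of all tested genes called, 34.4% higher and 21.6% lower). The lower ones were Aldoc and Gfap, the latter with -1.16 ± 0.48 (SE; adjusted p = 0.031), which in log2(TPM + 1) was 0.44, of the opposite sign. That call was also lost with library totals (-0.64), without all mESC libraries numbered 1 (-1.24, adjusted p = 0.1), and without the mESC cytoplasm library 1 (-1.04) or 2 (-1.17) or the chromatin library 2 (-1.16) or 3 (adjusted p = 0.1). Slc1a3 there was at 57.5, 90.8 and 97.6 CPM in chromatin and 3.61, 7.40 and 6.93 CPM in cytoplasm, 3.76 ± 0.22 (SE; adjusted p = 4.4e-14), with no overlap. The other higher ones, Slc1a2 and Sparcl1, rest on 13 and 7 counts against 0, at least 3.11-fold and 1.68-fold. Without the mESC libraries numbered 1 neither was called (adjusted p = 0.09 and 0.074), nor was Sparcl1 without the chromatin library 2 (adjusted p = 0.16) or the cytoplasm library 1, 2 or 3 (adjusted p = 0.074, 0.087 and 0.089). In log2(TPM + 1) they were 0.31 and 0.06, not called.

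In TPM the median log2 ratio of chromatin to cytoplasm over all genes was higher than in counts, and the mNPC differences in log2(TPM + 1) were -0.65 for Aldoc, -0.28 for Agt and -0.79 for S100b, none past the minimum, and 1.58 for Gfap and 1.52 for Slc1a2, both called. In mCtx log2(TPM + 1) gave -0.88 for Aldoc and -0.32 for Aqp4, and in mNPC Agt was -0.88 with library totals, all under the minimum. By counts Gfap was 0.70 ± 0.33 (SE; adjusted p = 0.063) and Slc1a2 0.77 ± 0.21 (SE; adjusted p = 0.0019). The chromatin-to-cytoplasm log2 fold change of Slc1a3 was 3.76 ± 0.22 in mESC, 0.16 ± 0.18 in mNPC and -0.75 ± 0.19 in mCtx (SE), and the step from mESC to mNPC was -3.60 ± 0.28 (SE; adjusted p = 2.1e-10). From mESC to mNPC 4 members changed toward the cytoplasm and Gfap toward the chromatin, by 1.86 ± 0.58 (SE; adjusted p = 0.011), with 28.0% of all tested genes called, 10.3% higher and 17.7% lower. In log2(TPM + 1) the change of Gfap was 1.14, not called. Of the 4, Slc1a3 was called in every alternative. Slc1a2 and Sparcl1 rest on groups at 0 counts in mESC cytoplasm: with mESC at its bound their changes were -0.87 and -1.16, and in log2(TPM + 1) they were 1.21 and 0.37, of the opposite sign. Without the mESC libraries numbered 1 neither was called (adjusted p = 0.21 and 0.066), and each was lost in 6 of 22 alternatives on counts. Apoe, at -1.47 ± 0.59 (SE; adjusted p = 0.049), was lost in 9 of 22. From mNPC to mCtx Aqp4 changed by -1.64 ± 0.29 (SE; adjusted p = 1.7e-04) and Slc1a2 by -1.12 ± 0.29 (SE; adjusted p = 0.004), both toward the cytoplasm, with 19% of all tested genes called, 7.68% higher and 11.4% lower. Slc1a2 was under the minimum without the mNPC cytoplasm library 3 (-0.99) or the mCtx cytoplasm library 3 (-0.95) and in log2(TPM + 1) (-0.92).

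A list of 39 other genes widely used as astrocyte markers, of which 38 were tested, was chosen like the members with earlier results of these data known. In mNPC against mESC cytoplasm, where 29.8% of all tested genes were higher and 29.6% lower, 32 were higher and 2 lower, the latter Mt2 and Gldc, named after their values were seen. The median fitted log2 fold change was 6.37 against -0.01 over all tested genes. In mCtx against mNPC 29 were lower in the cytoplasm, 36 in the nucleoplasm and 29 in the chromatin, and none was higher, where 20.0%, 22.1% and 21.4% of all tested genes were lower, with medians of -2.15, -3.55 and -2.54. Cst3 and Mfge8, among those with the highest mean level, show both steps. Cst3, a secreted protease inhibitor, went from 19.2 ± 4.06 CPM in mESC cytoplasm to 1615 ± 225 CPM in mNPC and 365 ± 28.2 CPM in mCtx, and Mfge8, a secreted bridge for phagocytosis, from 22.2 ± 3.72 CPM to 703 ± 185 CPM and 291 ± 27.7 CPM. These 4 steps were called by edgeR.

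Between nucleoplasm and cytoplasm of mNPC, 26 of the 38 further astrocyte genes were higher in the nucleoplasm and 1 was lower, where 16.4% of all tested genes were higher and 8.56% lower, with a median log2 fold change of 1.31. In mCtx 2 were higher and 6 were lower (21.3% of all tested genes called, 11.7% higher and 9.57% lower), with a median of -0.30. The change from mNPC to mCtx was called toward the cytoplasm for 25 and toward the nucleoplasm for none, where 13.3% and 6.31% of all tested genes were, with a median of -1.71 against 0.04 over all tested genes. Mfge8 went from 2.42 ± 0.26 in mNPC to 0.77 ± 0.25 in mCtx (log2 fold change ± SE), and this change was called. The single gene lower in mNPC was Mt3 and one of those higher in mCtx was Gldc, both named after their values were seen. Cst3, although secreted, was at 0.36 ± 0.21 in mNPC and was not called there.

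Of 18 regulators of astrocyte formation, all tested, 12 were higher and 1 lower in mNPC than in mESC cytoplasm, where 29.8% of all tested genes were higher and 29.6% lower. In mCtx against mNPC cytoplasm 6 were lower and none higher, where 20.0% were lower and 24.4% higher. Notch1, the receptor that keeps progenitors dividing, fell from 207 ± 49.9 CPM to 33.5 ± 5.23 CPM, -2.62 ± 0.18 on the log2 scale. Nfix and Nfib, NFI factors that activate astrocyte genes, were not called between mNPC and mCtx cytoplasm: Nfix was at 379 ± 67 CPM in mNPC and 638 ± 110.2 CPM in mCtx, and Nfib at 226 ± 61.2 CPM and 275 ± 23.9 CPM. Both were higher in mNPC than in mESC, by 7.53 ± 0.35 and 6.24 ± 0.46. Of 12 markers of reactive astrocytes 9 were tested, and in mNPC against mESC cytoplasm 4 were higher and 3 lower, with 29.8% and 29.6% over all tested genes, so these counts are no result about the list. Lcn2, their best known marker and named after its values were seen, had 0 counts in mNPC in every fraction. It also had 0 counts in mCtx nucleoplasm and cytoplasm, so this is not particular to mNPC. The sum of the list in mNPC cytoplasm, 304 to 427 CPM, was mostly Stat3 at 343 ± 62.2 CPM. Stat3, the transcription factor that drives Gfap, differed by -3.71 ± 0.15 on the log2 scale in mCtx against mNPC cytoplasm.

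Markers of some other cell types moved with the members and those of others did not. In the cytoplasm the oligodendrocyte, progenitor and ependymal sums were highest in mNPC, like those of the members. The microglia sum and the fibroblast and mural sum were lowest in mNPC, and the endothelium sum was highest in mESC. The counts of these lists stand against 29.8% of all tested genes higher in mNPC than in mESC cytoplasm, and 24.4% higher and 20.0% lower in mCtx than in mNPC cytoplasm. The 12 oligodendrocyte lineage markers summed to 3505 to 3793 CPM in mNPC cytoplasm against 281 to 335 CPM in mCtx and 68.6 to 88.1 CPM in mESC, and 9 of the 10 tested were higher in mNPC than in mESC and 9 were lower in mCtx than in mNPC. Olig1 stood at 1780.0 ± 76.2 CPM and Olig2, a factor of the oligodendrocyte and of some astrocyte lineages, at 890.0 ± 77.9 CPM, while Mog, the marker of mature myelin, had 0 counts in mNPC. The 10 progenitor markers held 6 that were higher in mNPC than in mESC cytoplasm and 7 that were lower in mCtx. The 15 microglia markers summed to 53.6 to 63.1 CPM in mNPC cytoplasm, 100.5 to 120.0 CPM in mCtx and 93.3 to 126.1 CPM in mESC, and 10 of the 13 tested were higher in mCtx than in mNPC. C1qa, C1qb and C1qc had 0 counts in mNPC in every fraction. C1qb and C1qc also had 0 counts in every mESC fraction and C1qa in mESC cytoplasm, so this is not particular to mNPC. Mog and these 3 complement genes are named after their values were seen. The 9 endothelium markers summed to 1.92 to 2.57 CPM in mCtx cytoplasm and 1.71 to 2.26 CPM in mNPC. The 9 fibroblast and mural markers summed to 26.4 to 34.3 CPM and 1.08 to 1.49 CPM, and 6 of the 8 tested were higher in mCtx. The 6 ependymal markers summed to 10.4 to 13 CPM and 69.2 to 82.4 CPM. The part of these cells in the levels of the 10 genes was not tested.

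**Figure D4:**
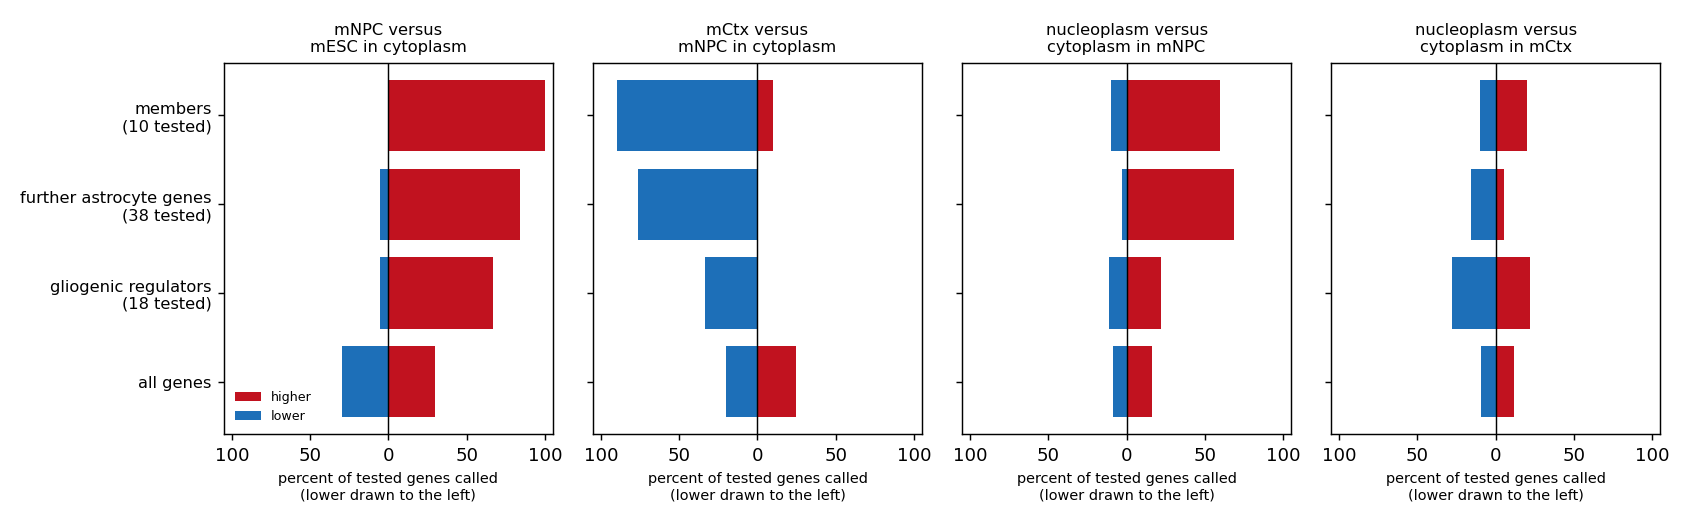
Percent of tested genes called higher (red, to the right) and lower (blue, to the left) among the 10 astrocyte genes, the 38 further astrocyte genes, the 18 regulators of astrocyte formation and all 18226 tested genes, in 4 comparisons. In nucleoplasm against cytoplasm, 6 of the 10 and 26 of the 38 are higher in mNPC, and 2 of the 10 and 2 of the 38 in mCtx.

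For each member the 3 protein-coding genes with the most similar levels were taken, by Pearson's r over the 9 group means of log2 CPM among 12306 genes that reach 10 CPM in some group. The 9 means share libraries within a cell type, so r is a description. Gfap was most like Acat3 (r = 0.9889), Ky (r = 0.9868) and Ptgds (r = 0.9821). S100b was most like Actc1 (r = 0.9952), Crybb1 (r = 0.99) and Tmcc3 (r = 0.9887), and Agt most like Actc1 (r = 0.9923), Gpr17 (r = 0.9914) and Slc27a6 (r = 0.9876), so Actc1, a muscle actin, led for both. Since S100b and Agt held 0 to 9 counts in each mESC and mCtx group, these values mainly set mNPC against the other cell types. Slc1a2, Sparcl1 and Aqp4 held 0 to 15 counts in each mESC group, so the gap to mESC weighs heavily in their r. Sparcl1 was most like Ntrk2 (r = 0.9976), Slc6a11 (r = 0.9967) and Brinp3 (r = 0.995), where Ntrk2 is the receptor of BDNF and Slc6a11 a GABA transporter of astrocytes that is also among the further astrocyte genes. Slc1a2, the member that was higher in neurons, was most like Pcdh7 (r = 0.9951), Ntm (r = 0.9943) and Dscam (r = 0.9939), which are cell adhesion genes. Slc1a3 was most like Csf1 (r = 0.9882), Angptl2 (r = 0.982) and Slc4a4 (r = 0.9808), the last a bicarbonate transporter of the further astrocyte list. Aqp4 was most like Ednrb (r = 0.9936), Gper1 (r = 0.9933) and Sardh (r = 0.9914), and Aldoc like Hey1 (r = 0.9877), Sox3 (r = 0.9876) and Dmrtb1 (r = 0.9808), where Hey1 is a Notch target and Sox3 a progenitor factor. Aldh1l1 was most like Phlpp1 (r = 0.9901), Abcd3 (r = 0.9723) and Eepd1 (r = 0.9696). Apoe, the member with the highest stem cell level, was most like Ctsc (r = 0.9931), Mettl7a1 (r = 0.9809) and Dhrs7 (r = 0.9753). Among the members themselves the lowest value was that of Apoe and Slc1a2, r = -0.008.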

How the data were processed

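Reads per gene and TPM were used, both deposited by the authors for 27 libraries. One table gives the number of reads per gene: raw read counts for each nucleoplasm and cytoplasm library, per the file headers, and whole numbers for each chromatin library, which were treated as counts too. The other gives deposited TPM per gene. The submitters' processing notes name STAR, kallisto (0.43.0), featureCounts and mm10. Which annotation and strand setting the authors counted with was not found in these sources. In all 37332 genes the deposited length equals the span, so reads in introns may be counted. GENCODE M21 gave symbols to 35449 of them.

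Counts were fitted with edgeR 4.0.16 (R 4.3.3): filterByExpr on the 9 groups, TMM scaling, 1 quasi-likelihood fit of the 27 libraries, 19 comparisons, and Benjamini-Hochberg adjustment over the 18226 genes tested. The SE is the log2 fold change over the square root of the F statistic. Folds against 0 counts are bounds at 3 counts over the group, and with 1 to 3 counts in a group the ratio carries an exact 95% interval, which covers counting error only. Alternatives were other scalings and filters, DESeq2 1.42.0, a replicate block, no minimum fold change, no mitochondrial genes, limma 3.58.1 on log2(TPM + 1) and log2(TPM + 0.1), and each library left out. The procedure was run on simulated counts in which chosen genes changed in mNPC cytoplasm alone and no spread was shared by replicate number. Such a run cannot show how the fit handles a shared spread or changes in most genes.

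The text names each member, the 3 genes of most similar level for each, and of each list genes among the 3 of highest mean CPM, of which 1 is not reported here. The members and lists were chosen with earlier results of these data known. The replicate numbers pair the mESC fractions, where same-numbered libraries deviated together (r 0.302 to 0.71). The reported fit holds no block for this number, which was used in an alternative alone. Spread shared by a number therefore counts as error in the reported mESC comparisons of fractions. In mNPC (-0.11 to 0.241) and mCtx (0.025 to 0.13) the correlation over all genes did not reach the level set for pairing in every pair, so the libraries were taken to share only a number. Among the members, however, the mNPC library numbered 1 was the highest of its group in 28 of the 30 pairs of a gene and a fraction. The SE of the mNPC fraction comparisons of these genes may hold a spread that the number shares.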

Additional observations from a re-analysis of the deposited data

Results flagged for a closer look

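The results here are changes of a fraction's log2 fold change between 2 cell types, each past the threshold in a test of the change itself in edgeR. From mESC to mNPC the chromatin-to-cytoplasm log2 fold change moved by 1.86 for Gfap, -3.60 for Slc1a3, -1.47 for Apoe, -4.06 for Slc1a2 and -4.38 for Sparcl1. The last 2 are fitted values that rest on 13 and 7 counts in mESC chromatin and none in mESC cytoplasm. With mESC at its bound the changes were -0.87 and -1.16, and in log2(TPM + 1) they were 1.21 and 0.37. Both calls were lost without the mESC chromatin library 2 or the mESC cytoplasm library 1, 2 or 3, and that of Slc1a2 without the mESC chromatin library 1. The change of Apoe had an adjusted p of 0.049 and was not called without the mESC chromatin library 1 (-0.94), the mESC cytoplasm library 2 (-1.31) or 3 (-1.32), the mNPC cytoplasm library 1 (-1.20) or 3 (-1.51) or the mNPC chromatin library 2 (-1.41) or 3 (-1.24). It was also not called with RLE size factors or DESeq2 (adjusted p = 0.059 and 0.088) or in log2(TPM + 1) (-1.30). From mNPC to mCtx it moved by -1.12 for Slc1a2 and -1.64 for Aqp4. That of Slc1a2 was -0.99 without the mNPC cytoplasm library 3 and -0.95 without the mCtx cytoplasm library 3.

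From mNPC to mCtx the nucleoplasm-to-cytoplasm log2 fold change moved by -2.50 for Aqp4, -2.31 for Slc1a3, -1.97 for Slc1a2, -1.87 for Apoe, -1.47 for Sparcl1 and 1.53 for Aldh1l1. In mNPC the nucleoplasm and cytoplasm libraries of the first 5 genes did not overlap. The mitochondrial share of the nucleoplasm was 8.81% to 11.7% in mNPC and 6.41% to 6.70% in mCtx. The part of that share in these changes was not tested.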

How the results depend on the processing

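Of 376 recomputed counts of members called, 48 moved by more than 1.5 times, all in comparisons of fractions or their changes. In chromatin against cytoplasm of mESC, 5 members became 3 with log2(TPM + 1), filtered or not, and with only the libraries compared, where 5 members were tested, and 2 without the mESC libraries numbered 1. The nucleoplasm of mESC against its cytoplasm went from 7 to 3 in the 3 TPM settings and to 4 without the mESC libraries numbered 1 or with only the libraries compared. With no minimum fold change the count was 5 in chromatin against cytoplasm of mNPC (3 in the reported fit), 5 in that of mCtx (2) and 5 in nucleoplasm against cytoplasm of mCtx (3). In chromatin against cytoplasm of mCtx, log2(TPM + 1) gave 1, filtered or not. The chromatin change from mESC to mNPC went from 5 to 2 in the 3 TPM settings and 3 without the mESC libraries numbered 1, and that from mNPC to mCtx from 2 to 4 with no filter and to 4, 5 and 4 in the TPM settings. The nucleoplasm change from mESC to mNPC went from 0 to 2 with library totals, 3 with no filter, 3 with DESeq2, 5, 5 and 4 in the TPM settings and 2 without the mESC libraries numbered 1. With the replicate number as a block, the count was 4 in chromatin against cytoplasm of mCtx, 2 for the nucleoplasm change from mESC to mNPC and 4 for the chromatin change from mNPC to mCtx, and the block moved no other member count by over 1.5 times.

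With single libraries left out, the counts ran from 3 to 6 in chromatin (3 without its chromatin library 2) and 5 to 6 in nucleoplasm against cytoplasm of mESC, from 3 to 5 in chromatin of mNPC (5 without its cytoplasm library 1) and from 2 to 4 in that of mCtx (4 without its chromatin library 1). For the changes they ran from 2 to 5 (chromatin, mESC to mNPC: 3 without the mESC cytoplasm library 1 or chromatin library 2, 2 without its cytoplasm library 2 or 3), from 0 to 3 (nucleoplasm, mESC to mNPC: 3 without the mNPC nucleoplasm library 3 and 1 without the mNPC cytoplasm library 1 or any 1 mESC library of these fractions) and from 1 to 3 (chromatin, mNPC to mCtx: 1 without the mCtx cytoplasm library 3).

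Of 3740 recomputed gene results, 3450 kept direction and side of the threshold, 157 lost the call, 110 gained one and 23 reversed, all on the TPM scale. In log2(TPM + 1), log2(TPM + 0.1) and log2(TPM + 1) with no filter, in this order, Gfap in chromatin against cytoplasm of mESC was 0.44, 0.51 and 0.44. In the same order the chromatin change from mESC to mNPC was 1.21, 0.06 and 1.21 for Slc1a2, and 0.37 for Sparcl1 in both log2(TPM + 1) settings. The nucleoplasm change from mESC to mNPC was 1.78, 1.6 and 1.78 for Slc1a2, 2.67, 2.21 and 2.67 for Sparcl1 and -1.39, -1.7 and -1.39 for S100b. S100b was 1.96 in chromatin against cytoplasm of mCtx with log2(TPM + 0.1), 1.52, 2.76 and 1.52 for the chromatin change and 1.27 in both log2(TPM + 1) settings for the nucleoplasm change from mNPC to mCtx. The causes were not tested. A further 138 sign changes, 53 of them on the TPM scale, involved no call in either fit and are not counted as reversals.

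Library totals moved the median over all genes by more than 0.1: in nucleoplasm against cytoplasm from -0.04 to -0.31 (mNPC) and 0.04 to 0.26 (mESC), in chromatin against cytoplasm from 0.37 to 0.88 (mESC), 0.12 to 0.43 (mNPC) and 0 to 0.24 (mCtx), and for the nucleoplasm change from mESC to mNPC from -0.24 to -0.73. The number of all genes called moved by over 1.5 times with no minimum fold change, from 6652 to 11521, 4553 to 8966 and 3878 to 8523 in nucleoplasm against cytoplasm of mESC, mNPC and mCtx, from 2591 to 4360 and 3571 to 5719 for the nucleoplasm changes and from 3472 to 5830 for the chromatin change from mNPC to mCtx. It also moved from 8904 to 14714 with log2(TPM + 0.1) in chromatin against cytoplasm of mNPC, from 2591 to 4615 with library totals and to 4168, 5546 and 3977 in the TPM settings for the nucleoplasm change from mESC to mNPC, and from 3472 to 5417, 5592 and 5357 for the chromatin change from mNPC to mCtx. In mESC, Slc1a2, Agt, S100b, Sparcl1 and Aqp4 held 0 to 15 counts per group, and in mCtx Agt and S100b held 1 to 9, which limits the precision of their differences between fractions of those cells.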
